A study of Mus musculus with 11 samples.

Results

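The TCR-CD3 complex is the antigen receptor of T cells. Its α and β chains bind peptide on MHC molecules, and the CD3 ε, δ and γ chains and the ζ chain, which carry the signalling motifs, pass that contact into the cell. The coreceptors CD4 and CD8 bind MHC class II and class I and bring the kinase LCK to the complex. A thymocyte expresses neither coreceptor at first, then both, and after selection keeps one of them, so the coreceptors and the receptor chains are the classic markers of thymocyte stages.

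The genes described here encode this complex: *Trac*, *Trbc1* and *Trbc2* (constant regions of the α and β chains), *Cd3e*, *Cd3d* and *Cd3g*, *Cd247* (ζ chain), *Cd4*, and *Cd8a* and *Cd8b1* (the chains of CD8). They were chosen by name and matched by Ensembl identifier, which found all 10 among the 54418 genes of the count table. RNA was measured by sequencing in suspensions of whole thymus, unsorted, from mice of 8 to 12 weeks on a C57BL/6-WEHI background. There were 4 wt mice, 4 Zmat3-/- mice and 3 Puma-/-p21-/-Zmat3-/- (TKO) mice. The Zmat3-/- mice lack ZMAT3, a zinc finger RNA-binding protein induced by TRP53, and the TKO mice also lack the pro-apoptotic protein PUMA and the cell cycle inhibitor p21. The deletions were germline, so every cell of the thymus carried them. Because the suspensions were bulk samples, fewer cells of a type and less RNA per cell cannot be told apart from the RNA alone. By flow cytometry of the thymus, the paper reports that T cell development appeared normal in TKO mice. Their shares of thymocytes with neither, both or one of the coreceptors were described as comparable to wt. The paper's text does not say this of the single mutant, nor whether the stained mice were those sequenced.

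The libraries held 17669715 to 80207003 counts, and the 10 genes took 0.762% to 1.13% of them. The fewest counts of any of these genes in any mouse were 5294 (*Cd3d* in TKO mouse 2), at which counting error alone is 1.37%, so the spread between mice and not depth limits what follows. Values are given as CPM, which are counts scaled to a common library size after TMM scaling of the library totals. Of the markers of double-positive thymocytes, *Rag1*, which encodes a subunit of the V(D)J recombinase, stood at 1592 to 5607 CPM and *Rag2*, which encodes the other, at 140 to 231 CPM. Markers of myeloid cells (*Adgre1*, 5.95 to 15.5 CPM, and *Lyz2*, 69.7 to 191 CPM) and of thymic epithelium (*Epcam*, 7.12 to 15.5 CPM) were present in every mouse. The targeted transcripts were still counted in the mutant mice. *Zmat3* ranged from 9.81 to 27.4 CPM in wt mice, against 5.33 to 6.91 CPM without ZMAT3 alone and 7.50 to 8.13 CPM in the TKO. *Bbc3*, which encodes PUMA, ranged from 17.0 to 19.8 CPM in wt and from 11.9 to 15.8 CPM in TKO mice, and *Cdkn1a*, which encodes p21, from 3.58 to 10.2 CPM and from 2.26 to 3.55 CPM.

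Wt mice 1 and 2 stood apart from wt mice 3 and 4, and above 500 bases the difference followed transcript length. Over the 13522 genes with enough counts in the 11 mice, the median log2 difference between the first and the second pair was 0.95 for genes whose longest transcript has 501 to 1000 bases (698 genes). It was 0.61 for 1001 to 2000 bases, 0.13 for 2001 to 4000, −0.39 for 4001 to 8000 and −1.03 above 8000. The 244 genes of up to 500 bases fell outside this order, with a median of 0.016 (quartiles −0.54 and 0.88). The same split of the Zmat3-/- mice gave medians between −0.13 and 0.06 in all 6 classes. Within the TKO group, from the class of 501 to 1000 bases to that above 8000, the median went from 0.20 to −0.21 for mouse 1 minus mouse 3 and from 0.17 to −0.19 for mouse 2 minus mouse 3. *Xist*, the transcript of the inactive X chromosome, was at 501 to 1498 CPM in wt mice 1 and 2, in TKO mouse 1 and in Zmat3-/- mice 1 and 2, against 0.733 to 2.60 CPM in the other 6 mice. The labels give no sex. For this reason the log2FC of the 10 genes and the medians of the gene lists are also given below for either pair of wt mice alone, while single genes of the lists are given mainly against all 4 wt mice. Each pair of wt mice is of one *Xist* level while both mutant groups hold mice of either level, so in those values the *Xist* level and the trend with length cannot be told apart. The pairs were chosen after seeing the data, and a fit on either pair alone leaves out the spread between the pairs. A gene that passed in such a fit is therefore not taken as changed.

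**Figure D1:**
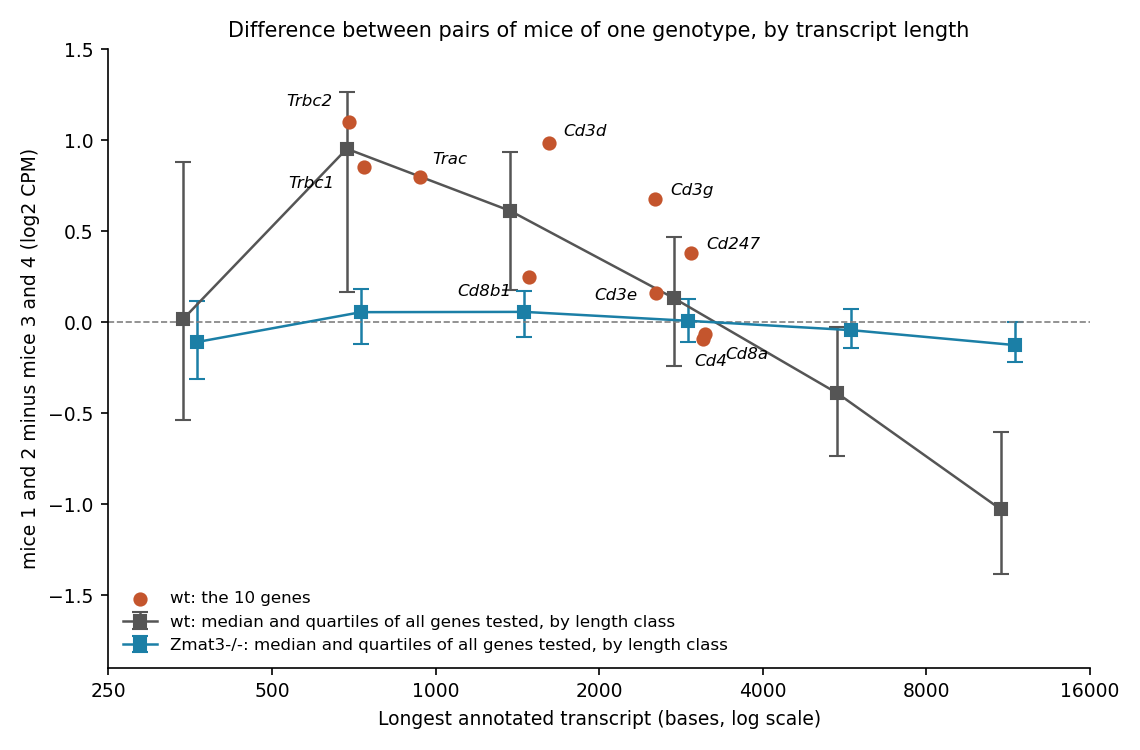
Mean log2 CPM of mice 1 and 2 minus that of mice 3 and 4 (vertical axis) against the longest annotated transcript in bases (log scale). Squares and bars give the median and quartiles of all genes tested in each length class for wt (grey) and Zmat3-/- mice (blue), and red points the 10 genes in wt mice. From the second class on, the grey line falls from 0.95 to −1.03, after 0.016 in the shortest class, while the blue line stays near 0, and the short *Trbc2*, *Trbc1*, *Trac* and *Cd3d* lie at 0.80 or above.

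Before the values, the sequences of the β chain genes show how far reads can be told apart between them. *Trbc1* (chr6:41538218-41539881, GRCm38, plus strand) and *Trbc2* (chr6:41546730-41548352, plus strand) are separated by 6848 bases. Their coding sequences of 518 bases each are 95.56% identical. The first 259 coding bases are the same in both genes, and the 23 differing bases lie in the last 259, which are shown spliced from exons within chr6:41538477-41539662 and chr6:41546989-41548178. Bases that differ between the genes are in capitals.
Trbc1: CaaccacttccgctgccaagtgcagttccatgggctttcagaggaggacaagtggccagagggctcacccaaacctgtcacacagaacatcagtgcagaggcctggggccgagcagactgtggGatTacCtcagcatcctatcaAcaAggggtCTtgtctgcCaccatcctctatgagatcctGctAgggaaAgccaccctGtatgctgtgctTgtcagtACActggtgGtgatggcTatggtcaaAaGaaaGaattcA
Trbc2: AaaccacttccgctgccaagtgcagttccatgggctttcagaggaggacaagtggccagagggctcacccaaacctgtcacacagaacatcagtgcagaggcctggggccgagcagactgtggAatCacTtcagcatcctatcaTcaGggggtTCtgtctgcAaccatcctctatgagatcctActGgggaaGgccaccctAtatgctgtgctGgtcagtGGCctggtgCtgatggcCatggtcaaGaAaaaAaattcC
Of the 31-base words of the annotated transcripts, 44.8% in *Trbc1* and 48.5% in *Trbc2* also occur in the other gene. Of the 116-base words, the length of 1 read, 23.9% and 26.2% do. Salmon assigns reads from the shared stretch in proportion, so the division between both genes is less certain than their sum. None of the other 8 genes shared a 31-base word with another of the 10.

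The genes of the CD3 chains ε, δ and γ form a cluster on chromosome 9. *Cd3g* (chr9:44969572-44980431, minus strand) and *Cd3d* (chr9:44981786-44987339, plus strand) are read away from each other from starts 1354 bases apart, and *Cd3e* (chr9:44998740-45009627, minus strand) lies 11400 bases beyond *Cd3d*. Their promoters, from 250 bases before to 50 after the RefSeq start on GRCm38.p6, are shown because these genes lie side by side and their values are set against each other below. Capitals mark AGGAAG or its complement CTTCCT, a core word of ETS factors.
Cd3e (chr9:45009562-45009861, minus strand): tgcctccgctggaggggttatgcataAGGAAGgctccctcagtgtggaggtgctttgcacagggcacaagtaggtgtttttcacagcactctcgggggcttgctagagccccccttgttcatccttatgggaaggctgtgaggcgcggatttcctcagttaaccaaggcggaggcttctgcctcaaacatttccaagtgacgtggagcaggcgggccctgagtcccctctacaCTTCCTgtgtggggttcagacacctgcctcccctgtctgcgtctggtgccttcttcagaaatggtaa
Cd3d (chr9:44981536-44981835, plus strand): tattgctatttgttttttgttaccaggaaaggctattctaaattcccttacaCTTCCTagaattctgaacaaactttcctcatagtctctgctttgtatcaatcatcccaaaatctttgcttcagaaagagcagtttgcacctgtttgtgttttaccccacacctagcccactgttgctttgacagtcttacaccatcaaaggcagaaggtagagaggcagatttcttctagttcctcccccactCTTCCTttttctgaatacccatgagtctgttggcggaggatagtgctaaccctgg
Cd3g (chr9:44980382-44980681, minus strand): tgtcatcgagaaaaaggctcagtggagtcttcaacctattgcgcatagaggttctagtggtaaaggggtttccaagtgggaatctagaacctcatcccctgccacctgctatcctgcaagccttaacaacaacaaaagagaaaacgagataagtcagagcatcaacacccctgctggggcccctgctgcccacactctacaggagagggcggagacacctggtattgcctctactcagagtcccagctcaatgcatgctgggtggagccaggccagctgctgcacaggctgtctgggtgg
The word occurred at 2 places each in the promoters of *Cd3e*, *Cd3d* and *Cd247*, and at none in those of *Cd3g* and *Cd8a*. The shares of promoters given here were counted over 32851 RefSeq promoters of full length, with a chromosome left out. Of these promoters, 35.4% hold the word on either strand. The RUNX word TGTGGT, present in 16.8% of promoters, and the word TATAAA, present in 13.6%, occurred in none of these 5. The GATA word AGATAA (11.2%) occurred once, in *Cd3g*, and the E-box CANNTG (72.3%) in each of the 5, at places that overlap no other word. No promoter of *Cd4*, *Cd8b1* or the TCR genes was analysed here.

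The 10 genes covered a wide range of levels. Per kilobase of exon, *Trbc2* was the highest, with a mean over the 11 mice of 2492 CPM per kb, followed by *Trbc1* (1505), *Cd8b1* (726), *Cd8a* (485), *Trac* (421), *Cd4* (268), *Cd3d* (196), *Cd3g* (150), *Cd3e* (98.7) and *Cd247* (80.7). The order of the mean levels was the same in wt, Zmat3-/- and TKO mice. Of the 9 pairs of neighbours in it, *Trbc1* with *Cd8b1*, *Cd8b1* with *Cd8a* and *Trac* with *Cd4* had ranges over the 11 mice that did not overlap. The ranges of the other 6 pairs overlapped. *Cd8a* lay above *Trac*, *Cd4* above *Cd3d* and *Cd3e* above *Cd247* in 9 of 11 mice. These levels depend on the length used, and with the longest transcript in place of all exons *Cd3e* was at 158 in place of 98.7 CPM per kb and *Cd247* at 145 in place of 80.7. On that scale *Cd247* had the higher mean in both mutants (151 against 138 CPM per kb in Zmat3-/- and 147 against 140 in TKO mice), and *Cd3e* in wt mice (192 against 139).

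The first question was whether loss of ZMAT3 alone changed the receptor and coreceptor transcripts. In Zmat3-/- against wt thymocytes *Cd3e* and *Cd8a* were lower than in every wt mouse, and the other 8 overlapped with wt. None of the 10 genes passed edgeR's quasi-likelihood test at an adjusted p under 0.05, which 0.764% of the 13480 genes tested passed. At an unadjusted p under 0.05 there was 1 of 10 (*Cd3e*), against 16.1% of all genes. Of the 10, 8 were lower in Zmat3-/- mice, with a median log2FC of −0.27 over the 10 and −0.03 over all genes, of which 53.2% were lower. The median over the 10 was 0.094 against wt mice 3 and 4 alone, −0.51 against wt mice 1 and 2 alone and −0.12 after the trend with transcript length was removed, so that its sign depended on the wt mice.

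*Cd3e* encodes the ε chain, which pairs with both δ and γ and without which no complex reaches the cell surface. It was at 557, 476, 477 and 446 CPM in wt mice 1 to 4 and at 325, 363, 356 and 361 CPM in Zmat3-/- mice 1 to 4. Every Zmat3-/- mouse was below every wt mouse, as were 6.91% of all genes tested. The log2FC was −0.47 (standard error 0.109, 95% interval −0.72 to −0.22, adjusted p = 0.0970 from edgeR). It was −0.39 against wt mice 3 and 4 alone (adjusted p = 0.00166) and −0.57 against wt mice 1 and 2 alone (adjusted p = 0.000649), in fits that called 33.0% and 56.1% of all genes. *Cd3e* also passed with DESeq2 (adjusted p = 9.90e-05, 8.03% of genes called), with 1 surrogate variable (adjusted p = 0.000240, 37.8% called) and after the trend with transcript length was removed (log2FC −0.38, adjusted p = 0.0366, 3.36% called). Blocking on the replicate number gave an adjusted p of 0.253 (0.0890% called). The annotation puts the antisense gene *Gm48719* and *Gm48720* within *Cd3e*, and the library kit did not mark strand. Their own counts came to 1.03 to 4.30 CPM and 0.220 to 2.02 CPM. *Cd247* overlaps 6 annotated genes, among them the protein-coding *Pou2f1* on the opposite strand (38.3 to 141 CPM over the 11 mice), while the other 5 stood at 0 to 9.40 CPM. No overlapping gene was annotated for the other 8 of the 10.

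*Cd8a*, the α chain of CD8, was the other gene whose ranges did not overlap. It was at 1842, 1949, 2059 and 1901 CPM in wt mice and at 1506, 1635, 1722 and 1713 CPM in Zmat3-/- mice. The log2FC was −0.23 (standard error 0.118, 95% interval −0.50 to 0.03, adjusted p = 0.369 from edgeR). It was −0.27 against wt mice 3 and 4 alone (adjusted p = 0.0263) and −0.22 against wt mice 1 and 2 alone (adjusted p = 0.0873). *Cd8a* passed with DESeq2 (adjusted p = 0.0283) and with 1 surrogate variable (adjusted p = 0.0107). *Cd8b1*, the β chain of CD8, had 1285, 1311, 1159 and 1028 CPM in wt mice. In Zmat3-/- mice it had 884, 979, 988 and 1063 CPM, so that the ranges overlapped at wt mouse 4, and its log2FC was −0.29 (standard error 0.129, adjusted p = 0.324). It was −0.16 against wt mice 3 and 4 alone (adjusted p = 0.166). *Cd8b1* passed against wt mice 1 and 2 alone (−0.42, adjusted p = 0.00475) and with 1 surrogate variable (adjusted p = 0.0161).

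*Cd4*, the coreceptor for MHC class II, overlapped between the genotypes. It was at 1003, 1003, 1090 and 1046 CPM in wt mice and at 968, 1050, 1135 and 1189 CPM in Zmat3-/- mice. Its log2FC was 0.07 (standard error 0.116, 95% interval −0.19 to 0.34, adjusted p = 0.776 from edgeR), an interval that reaches from 0.874-fold to 1.26-fold. It was 0.023 against wt mice 3 and 4 alone and 0.10 against wt mice 1 and 2 alone. *Cd247*, whose ζ chain joins the complex last and carries most of its signalling motifs, was at 461, 466, 368 and 346 CPM in wt and at 419, 412, 460 and 489 CPM in Zmat3-/- mice. The log2FC of *Cd247* was 0.12 (standard error 0.136, adjusted p = 0.675). It was 0.32 against wt mice 3 and 4 (adjusted p = 0.0118) and −0.07 against wt mice 1 and 2 (adjusted p = 0.537).

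For the remaining chains the comparison turned on the wt mice. *Trbc2* was at 2974 and 2438 CPM in wt mice 1 and 2 and at 1269 and 1244 CPM in wt mice 3 and 4, with the Zmat3-/- mice between them at 1542 to 1630 CPM. *Trbc1* showed the same picture, at 1619 and 1440 CPM, then 877 and 818 CPM, against 1079 to 1150 CPM in Zmat3-/- mice. With wt mice 3 and 4 alone, *Trbc1* and *Trbc2* were higher in Zmat3-/- mice (log2FC 0.40 and 0.34, adjusted p = 0.00284 and 0.00533 from edgeR, 33.0% of all genes called). With wt mice 1 and 2 alone both were lower (−0.47 and −0.78, adjusted p = 0.00245 and 0.000356, 56.1% called). These fits leave out the spread between the pairs of wt mice, so their p-values do not show a change in either direction. With all 4 wt mice the log2FC was −0.09 for *Trbc1* (standard error 0.232) and −0.31 for *Trbc2* (standard error 0.290).

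*Trac* and the CD3 chains δ and γ behaved alike. *Trac* was at 596, 563, 342 and 324 CPM in wt and at 325 to 378 CPM in Zmat3-/- mice. *Cd3d* was at 643, 505, 293 and 282 CPM in wt and at 308 to 328 CPM in Zmat3-/- mice, and *Cd3g* at 719, 655, 432 and 426 CPM against 448 to 487 CPM. The log2FC was −0.40 for *Trac* (standard error 0.217, adjusted p = 0.407), −0.44 for *Cd3d* (standard error 0.262, adjusted p = 0.440) and −0.24 for *Cd3g* (standard error 0.190, adjusted p = 0.553). Against wt mice 3 and 4 alone they were 0.06, 0.14 and 0.13, and none passed (33.0% of all genes called). Against wt mice 1 and 2 alone they were −0.76, −0.87 and −0.56, and all passed in a fit that called 56.1% of all genes. *Trac* and *Cd3d* also passed with 1 surrogate variable (adjusted p = 0.0136 and 0.00787). Between the pairs of wt mice *Trbc2* differed 2.14-fold, *Cd3d* 1.98-fold, *Trbc1* 1.80-fold, *Trac* 1.74-fold *Cd3g* 1.60-fold and *Cd3e* 1.12-fold.

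**Figure D2:**
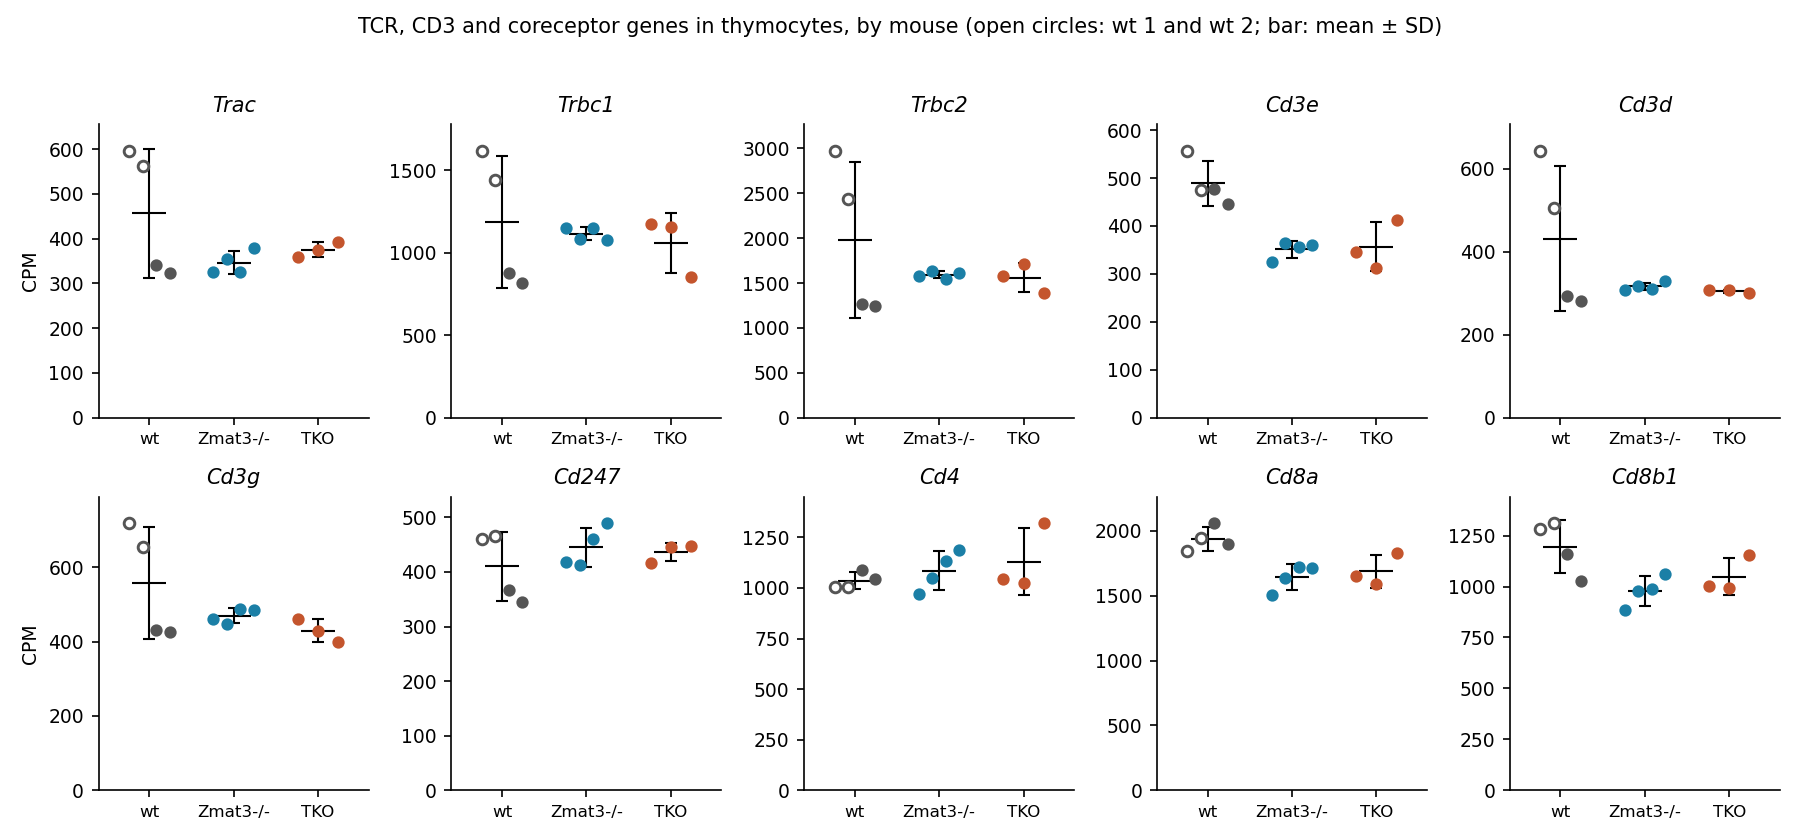
CPM of the 10 genes in each mouse (vertical axes start at 0), for wt (grey), Zmat3-/- (blue) and TKO mice (red). Open circles are wt mice 1 and 2, and the black bars give the mean ± SD of each group. *Cd3e* and *Cd8a* are the genes whose wt values all lie above the values of both mutants. In *Trac*, *Trbc1*, *Trbc2*, *Cd3d* and *Cd3g* the open circles stand furthest apart from the other wt mice.

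The second question was whether the combined loss of PUMA, p21 and ZMAT3 changed these genes. The TKO mice were compared with the same wt mice, so the comparisons share their controls and the values stand side by side rather than as separate support. None of the 10 genes passed edgeR's test, against 0.294% of the 13275 genes tested, and 1 of 10 (*Cd3e*) had an unadjusted p under 0.05, against 10.3% of all genes. Of the 10, 8 were lower in TKO mice, with a median log2FC of −0.26 over the 10 and −0.04 over all genes. This median was 0.071 against wt mice 3 and 4 alone, −0.55 against wt mice 1 and 2 alone and −0.0058 without the trend with length. *Cd3e* was at 346, 312 and 412 CPM in TKO mice 1 to 3, all below the lowest wt mouse, which held for 7.01% of all genes. Its log2FC was −0.47 (standard error 0.160, adjusted p = 0.413 from edgeR), and it was −0.38 against wt mice 3 and 4 and −0.55 against wt mice 1 and 2. The last of these passed (adjusted p = 0.0163, 43.6% of genes called), as did the fit with 1 surrogate variable (adjusted p = 0.0204, 18.0% called), in which *Cd3d* and *Cd3g* passed too (adjusted p = 0.0303 and 0.0321). None of the 10 passed with DESeq2 (2.88% of genes called), in the fit blocked on replicate number (0.121%) or after the trend with length was removed (0.610%). *Cd8a* was at 1648, 1588 and 1829 CPM, the highest of them just under the lowest wt mouse, and its log2FC was −0.21 (standard error 0.160, adjusted p = 0.640). It was −0.24 against wt mice 3 and 4 alone and −0.18 against wt mice 1 and 2 alone, and neither passed.

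The other coreceptor and receptor genes overlapped between TKO and wt mice. *Cd4* was at 1044, 1025 and 1320 CPM (log2FC 0.11, standard error 0.160, adjusted p = 0.791 from edgeR) and *Cd8b1* at 1002, 991 and 1155 CPM (log2FC −0.20, standard error 0.167, adjusted p = 0.662). *Cd247* was at 417, 445 and 447 CPM, with a log2FC of 0.07 (standard error 0.164). *Trac* was at 359, 374 and 393 CPM (log2FC −0.30, standard error 0.256) and *Trbc2* at 1582, 1712 and 1386 CPM (log2FC −0.36, standard error 0.352). *Trbc1* stood at 1172 and 1158 CPM in TKO mice 1 and 2 and at 853 CPM in mouse 3, and its log2FC was −0.18 (standard error 0.298). *Cd3d* kept to 307, 307 and 301 CPM and *Cd3g* to 460, 429 and 399 CPM, with log2FC of −0.52 (standard error 0.311) and −0.39 (standard error 0.235). The log2FC against wt mice 3 and 4 alone was 0.068 for *Cd4*, −0.072 for *Cd8b1*, 0.28 for *Cd247* and −0.0083 for *Cd3g*. Against wt mice 1 and 2 alone these genes were at 0.16, −0.32, −0.10 and −0.69. *Trac*, *Trbc1*, *Trbc2* and *Cd3d* had log2FC of 0.16, 0.32, 0.30 and 0.07 against wt mice 3 and 4 alone, and none of the 10 passed there (8.14% of genes called). Against wt mice 1 and 2 alone the values were −0.64, −0.54, −0.81 and −0.93, and these 4 genes, *Cd3e* and *Cd3g* passed (43.6% of genes called).

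**Figure D3:**
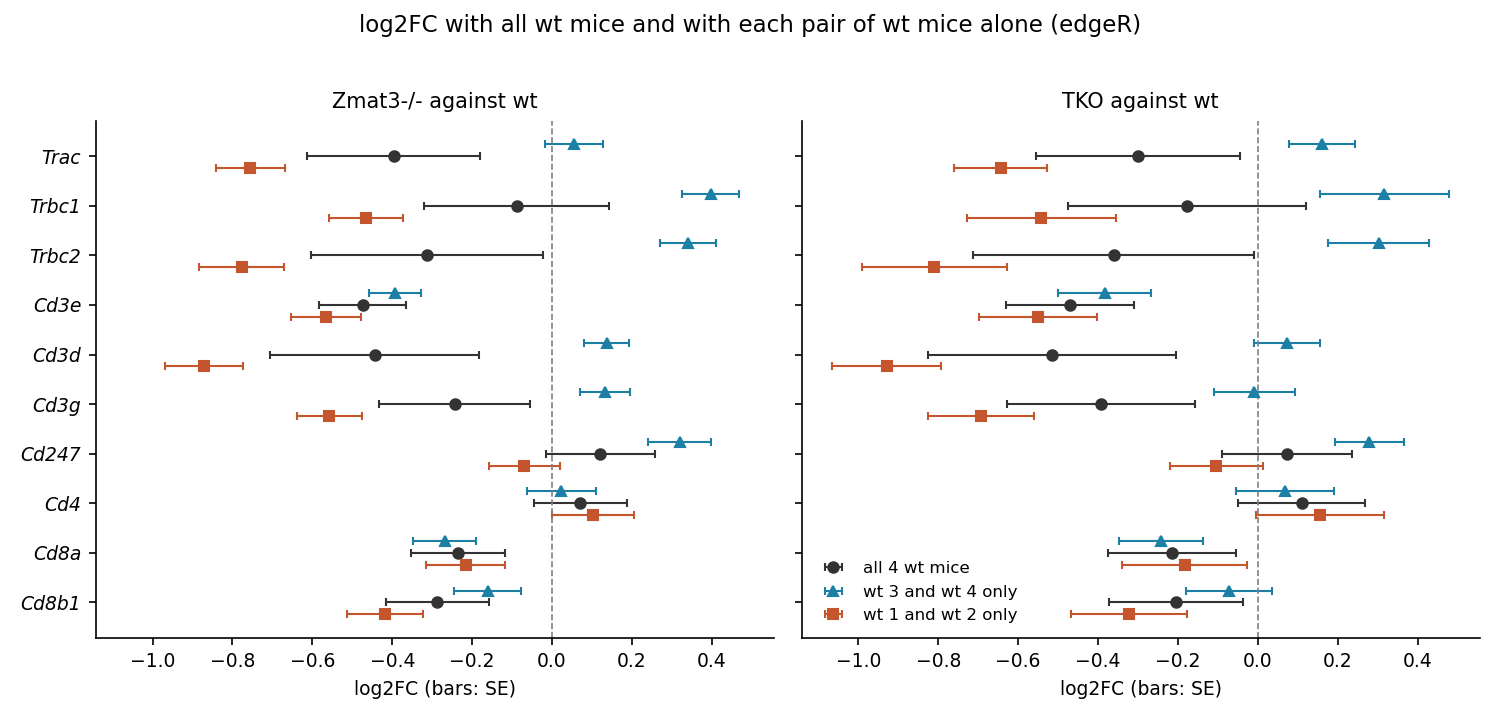
Log2FC (horizontal axis, bars give the standard error from edgeR) of the 10 genes in Zmat3-/- (left) and TKO mice (right) against all 4 wt mice (circles), wt mice 3 and 4 alone (triangles) and wt mice 1 and 2 alone (squares). The 3 symbols lie on the same side of 0 for *Cd3e*, *Cd8a* and *Cd8b1* (left of it) and for *Cd4* (right of it), and on both sides for *Trbc1*, *Trbc2*, *Trac*, *Cd3d*, *Cd247* and, in Zmat3-/- mice, *Cd3g*.

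The third comparison, TKO against Zmat3-/- mice, shows what the loss of PUMA and p21 added. It does not involve the wt mice. None of the 10 genes passed, against 0.221% of the 13132 genes tested, and none had an unadjusted p under 0.05, against 4.50% of all genes. The log2FC lay between −0.15 (*Cd3g*) and 0.10 (*Trac*), with standard errors of 0.065 to 0.124 and adjusted p of 0.982 or more from edgeR. All 95% intervals lay between −0.36 and 0.28, so that a decrease of more than 1.28-fold and an increase of more than 1.21-fold lay outside each of them. *Cd3d* was lower in every TKO mouse (301 to 307 CPM) than in every Zmat3-/- mouse (308 to 328 CPM), as were 2.44% of all genes, but by a log2FC of only −0.07 (standard error 0.065). No other of the 10 separated these genotypes.

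**Figure D4:**
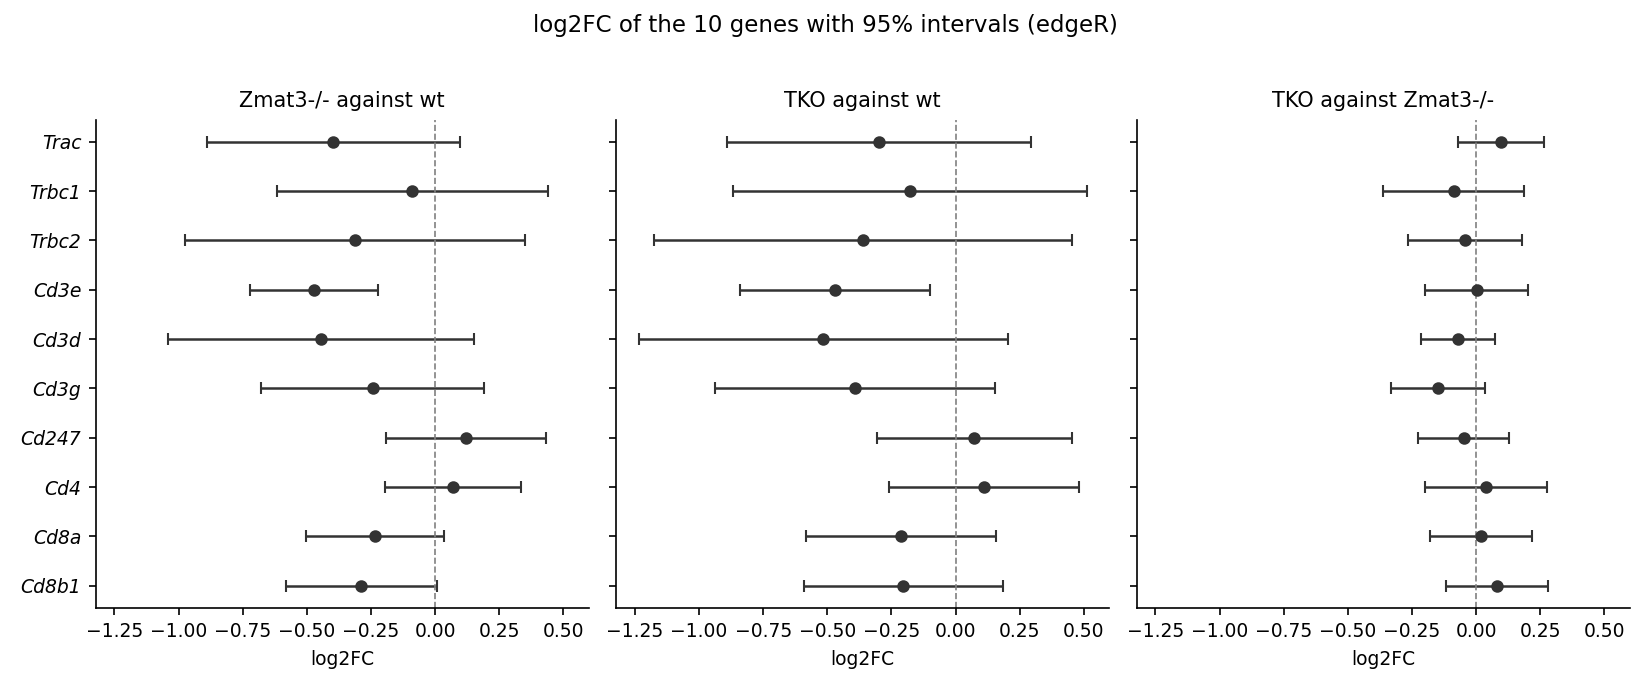
Log2FC of the 10 genes (points) with 95% intervals from edgeR (bars) in the comparisons of Zmat3-/- with wt, TKO with wt and TKO with Zmat3-/- mice. The intervals are wide against wt, where those of *Cd3e* alone leave out 0, and narrow between the mutants, where every interval includes 0 and stays between −0.36 and 0.28.

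Ratios between these genes within a mouse do not depend on how libraries are scaled. For 8 ratios the difference in mean log2 ratio between each pair of genotypes was tested by exact permutation, two-sided, with p adjusted over the 24 tests. The ratio of *Cd4* to *Cd8a* counts was 0.544, 0.515, 0.529 and 0.550 in wt mice 1 to 4. It was 0.643, 0.643, 0.659 and 0.694 in Zmat3-/- mice and 0.633, 0.646 and 0.722 in TKO mice. The lowest mutant mouse was above the highest wt mouse, and the values of the pairs of wt mice overlapped. The mean ratio was 1.23-fold higher in Zmat3-/- mice (log2 difference 0.30, exact permutation p = 0.0286, adjusted p = 0.171) and 1.25-fold higher in TKO mice (0.32, exact permutation p = 0.0286, adjusted p = 0.171). For 4 mice against 4 and for 3 against 4, 0.0286 is the smallest p these permutations can give. Against wt mice 3 and 4 alone the log2 difference was 0.29 in Zmat3-/- and 0.30 in TKO mice, and against wt mice 1 and 2 alone it was 0.32 and 0.33. *Cd4* and *Cd8a* have longest transcripts of 3108 and 3128 bases, the same length class.

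The ratio of *Cd247* to *Cd3e* also separated wt from mutant mice. It was 0.828, 0.979, 0.771 and 0.775 in wt mice, 1.29, 1.13, 1.29 and 1.36 in Zmat3-/- mice and 1.21, 1.42 and 1.08 in TKO mice. The mean ratio was 1.52-fold higher in Zmat3-/- mice (log2 difference 0.60) and 1.47-fold higher in TKO mice (0.56), each with an exact permutation p = 0.0286 and adjusted p = 0.171. Against wt mice 3 and 4 alone the log2 differences were 0.71 and 0.67, and against wt mice 1 and 2 alone 0.49 and 0.45. The denominators of both separating ratios, *Cd8a* and *Cd3e*, are the genes already lower in every mutant mouse than in every wt mouse. The ratios thus partly restate that result. How many ratios of other gene pairs separate the genotypes was not counted.

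The other 6 ratios overlapped between genotypes in all comparisons. The ratio of the CD8 chains, *Cd8b1* to *Cd8a*, ran from 0.541 to 0.697 in wt mice, from 0.574 to 0.620 in Zmat3-/- mice and from 0.608 to 0.632 in TKO mice. The ratio of *Trbc1* to *Trbc2* counts was 0.544 to 0.691 in wt mice, 0.666 to 0.744 in Zmat3-/- mice and 0.615 to 0.741 in TKO mice. That of *Trac* to the sum of both β genes was 0.130 to 0.159, 0.119 to 0.141 and 0.130 to 0.175. In wt mice the ratio of *Cd3d* to *Cd3e* ran from 0.614 to 1.16 and that of *Cd3g* to *Cd3e* from 0.905 to 1.38, with wt mice 1 and 2 at the upper ends. Their ranges in Zmat3-/- mice were narrower, from 0.871 to 0.947 and from 1.23 to 1.41. The sum of the TCR genes relative to that of *Cd3d*, *Cd3e* and *Cd3g* ran from 2.07 to 2.71 in wt mice, from 2.61 to 2.80 in Zmat3-/- mice and from 2.37 to 3.09 in TKO mice. The lowest exact permutation p among these 6 ratios was 0.0857 (*Trac* over both β genes, Zmat3-/- against wt), with an adjusted p of 0.392.

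**Figure D5:**
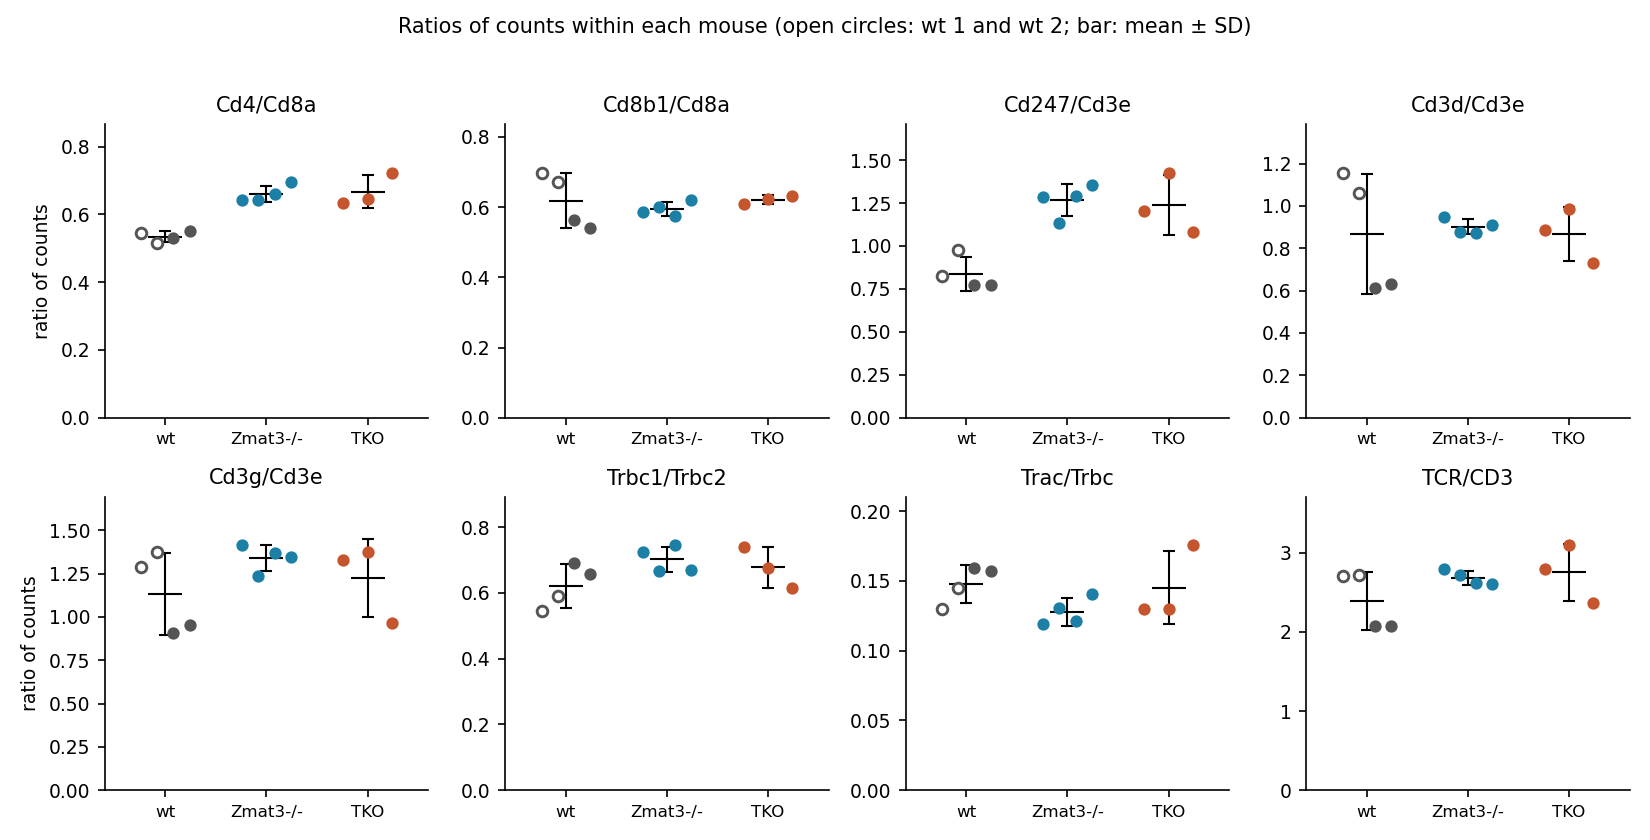
Ratios of counts within each mouse (vertical axes start at 0) for wt (grey), Zmat3-/- (blue) and TKO mice (red). Open circles are wt mice 1 and 2, and bars give the mean ± SD. The *Cd4* to *Cd8a* and *Cd247* to *Cd3e* ratios of all 7 mutant mice lie above those of all 4 wt mice, and the other 6 ratios overlap.

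Receptor chains that the complex uses in other stages or lineages had negative log2FC against all 4 wt mice, and none passed. Of 7 listed genes 6 were tested, among them *Ptcra*, the surrogate α chain of the pre-TCR, and the γ and δ constant genes. All 6 were below 0 in both mutants, with a median log2FC of −0.49 in Zmat3-/- and −0.65 in TKO mice against wt. Against wt mice 3 and 4 alone 3 and 4 of the 6 were below 0, with medians of −0.07 and −0.26, and against wt mice 1 and 2 alone all 6 were, with medians of −0.74 and −1.03. Without the trend with length 5 of the 6 were below 0 in either mutant, with medians of −0.30 in Zmat3-/- and −0.47 in TKO mice. In TKO mice *Tcrg-C1* had the lowest value (log2FC −0.89, standard error 0.221, adjusted p = 0.271 from edgeR) and *Ptcra* the one nearest 0 (−0.10, standard error 0.257). In Zmat3-/- mice these places went to *Tcrg-C2* (−0.60, standard error 0.230) and *Fcer1g* (−0.24, standard error 0.300). The γ constant genes resemble each other closely, so their counts are uncertain individually.

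Of the kinases, adaptors and phosphatases that act next to the receptor, none of 31 passed in any comparison. Their median log2FC was 0.12 in Zmat3-/- and 0.10 in TKO mice against wt, with 20 and 23 of 31 above 0. The medians were 0.018 and 0.036 against wt mice 3 and 4 alone and 0.11 and 0.10 against wt mice 1 and 2 alone. The extremes were *Tec*, a cytoplasmic kinase (log2FC −0.70, standard error 0.154, adjusted p = 0.0886 in Zmat3-/- and −0.77, standard error 0.201, adjusted p = 0.299 in TKO mice), and *Themis*, an adaptor needed for thymocyte selection (0.35 in Zmat3-/-). In TKO mice the upper extreme was *Pag1*, which anchors the kinase CSK (0.51, standard error 0.401). Between TKO and Zmat3-/- mice, *Ubash3a*, a negative regulator of receptor signalling, had the highest value (0.33, standard error 0.069, adjusted p = 0.186). Of 10 adhesion and costimulation genes none passed, and their medians were −0.18 in Zmat3-/- and −0.19 in TKO mice against wt. They were −0.068 and −0.014 against wt mice 3 and 4 alone and −0.31 and −0.38 against wt mice 1 and 2 alone. *Ptprcap*, which encodes a protein bound to CD45, had −0.59 and −0.58, and *Itgal*, the α chain of LFA-1, 0.06 and 0.22.

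Of the transcription factors that set receptor and coreceptor expression, none of 19 passed. The medians were 0.10 in Zmat3-/- and 0.15 in TKO mice against wt, with 16 and 15 of 19 above 0. They were −0.013 and 0.042 against wt mice 3 and 4 alone and 0.26 and 0.32 against wt mice 1 and 2 alone. Without the trend with length they were 0.036 and 0.071, with 8 and 7 of 19 below 0. *Tcf12*, which encodes the E protein HEB, had the highest log2FC against all wt mice in both mutants (0.64, standard error 0.294, and 0.59, standard error 0.341). The lowest were *Lef1* in Zmat3-/- mice (−0.21) and *Gata3* in TKO mice (−0.14). Between the mutants *Zbtb7b*, which encodes the CD4 lineage factor ThPOK, was lowest (−0.08, standard error 0.131) and *Runx3*, the CD8 lineage factor, highest (0.21, standard error 0.118), and neither passed.

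Among 3 lists of thymocyte stage markers, the medians in Zmat3-/- against wt mice were 0.04 over 14 double-negative, 0.00 over 13 double-positive and −0.06 over 15 single-positive genes. In TKO against wt mice the medians were 0.16, 0.07 and −0.07. Some of these directions depended on the wt mice used. In the same order and against wt mice 3 and 4 alone the medians were 0.087, −0.040 and −0.089 in Zmat3-/- mice and 0.15, −0.0011 and 0.019 in TKO mice. Against wt mice 1 and 2 alone they were −0.079, 0.067 and −0.26 in Zmat3-/- mice and −0.066, 0.16 and −0.082 in TKO mice. Without the trend with length they were −0.033, 0.077 and −0.23 in Zmat3-/- mice and 0.12, 0.078 and −0.25 in TKO mice. Of these 42 genes 1 passed, *Ms4a4b* of mature thymocytes, which was lower in Zmat3-/- mice (log2FC −0.49, standard error 0.079, adjusted p = 0.0341 from edgeR). *Ms4a4b* did not pass with the replicate block (adjusted p = 0.191) or without the filter on low counts (adjusted p = 0.126). It also did not pass with any Zmat3-/- mouse left out (0.138 to 0.159) or with wt mouse 2, 3 or 4 left out (0.0689 to 0.0844). *Cd69*, a marker of selected thymocytes, had the highest value among single-positive genes in both comparisons (0.40, adjusted p = 0.121, and 0.46, adjusted p = 0.275). *Ccr7*, which guides mature thymocytes to the medulla, had the lowest in Zmat3-/- mice (−0.54, adjusted p = 0.289), and *Cd52* the lowest in TKO mice (−0.55). Among double-positive genes the extremes were *Aqp11* (−0.57 and −0.48), *Tcf12* in Zmat3-/- mice and *Cd24a*, a surface protein of immature thymocytes, in TKO mice (0.70, standard error 0.153, adjusted p = 0.190). Among double-negative genes they were *Lyl1* (−0.48 and −0.48), *Mef2c* in Zmat3-/- (0.60) and *Notch1* in TKO mice (0.52).

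Transcripts of other cells of the thymus varied within genotypes. The summed CPM of 10 B cell genes ran from 517 to 864 in wt mice, from 488 to 528 in Zmat3-/- mice and from 499 to 559 in TKO mice. That of 16 myeloid genes was 291 to 533, 390 to 530 and 221 to 603, and that of 17 stromal genes 232 to 365, 278 to 316 and 209 to 309. Erythroid transcripts were the most abundant of these lists and varied most, with sums over 7 genes from 867 to 8697 in wt mice, from 1151 to 5754 in Zmat3-/- mice and from 2701 to 3730 in TKO mice. The median log2FC of the tested B cell, myeloid, stromal and erythroid genes against wt mice 3 and 4 alone was 0.11, 0.58, 0.92 and −0.73 in Zmat3-/- mice and 0.037, 0.47, 0.70 and −0.57 in TKO mice. Against wt mice 1 and 2 alone every one of these medians had the opposite sign, at −0.52, −0.15, −0.21 and 1.77 in Zmat3-/- mice and −0.45, −0.31, −0.35 and 1.90 in TKO mice. No gene of these lists was at 0 in all mice of a genotype. In these lists 1 gene passed, the macrophage gene *Mrc1* in Zmat3-/- against wt mice (log2FC 0.85, standard error 0.147, adjusted p = 0.0453 from edgeR). It did not pass with the replicate block (adjusted p = 0.191), with all genotypes in 1 fit (0.145), without the filter on low counts (0.0856) or with any 1 mouse left out (0.0688 to 0.154). The part of these cells in the values of the 10 genes was not tested.

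Immediate-early genes, which receptor signalling can induce, were the exception among the lists. Of 20 listed genes 6 passed in each comparison with wt and all 6 were higher in the mutants. Of all genes, 0.764% passed in Zmat3-/- and 0.294% in TKO mice. The list medians were 0.83 and 0.84. Against wt mice 3 and 4 alone they were 1.31 and 1.30, and against wt mice 1 and 2 alone 0.55 and 0.64. The 6 genes passed with either pair. These fits called 33.0% and 8.14% of all genes with wt mice 3 and 4, and 56.1% and 43.6% with wt mice 1 and 2. The 6 genes were *Fosb* (log2FC 3.73 and 3.84), *Klf4* (2.89 and 3.05), *Dusp1* (2.29 and 2.37), *Nr4a2* (2.26 and 2.21), *Nr4a1* (1.13 and 1.15) and *Klf6* (1.12 and 0.97). What raised them was not tested. *Egr2*, another gene that receptor signals induce, had the lowest values of the list (−0.58, adjusted p = 0.0860, and −0.67, adjusted p = 0.240). None passed between TKO and Zmat3-/- mice. Over all these lists together 8 genes passed in Zmat3-/- and 6 in TKO mice against wt, and 2 and 0 when the replicate number was blocked. With any 1 mouse left out the counts ran from 3 to 7 and from 0 to 6, falling most without TKO mouse 1.

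Genes whose levels followed the receptor genes most closely over the 11 mice were found by Pearson's r of log2 CPM among 13512 other genes, as a description of these libraries, which differ in depth and in the trend with length. For *Trac* they were *Msrb2* (r = 0.989), *Tmem50a* (0.982) and *Hpcal1* (0.980). For *Cd3e* they were *Cstf1* (0.982), *Ptp4a3* (0.982) and *Slc35a2* (0.959), and for *Cd8a* again *Slc35a2* (0.939), *Glrx2* (0.938) and *Fn3k* (0.925). For *Cd247* they were *Tars* (0.940), *Trpc4ap* (0.927) and *Map1lc3b* (0.918), and for *Cd4* *Stx6* (0.938), *Tollip* (0.904) and *Pvr* (0.895).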

How the data were processed

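RNA was prepared from a whole-thymus suspension per mouse, and 100 ng of it entered a TruSeq library that does not mark strand. Per the paper's methods and the labels' tools (Salmon, bcl2fastq, DESeq2 1.40.0), the authors quantified paired reads of 116 bases against GRCm38.p6 with GENCODE vM25 and deposited estimated counts per gene, unnormalized and already whole numbers. Names and lengths came from GENCODE M21, which matched 54166 of 54418 genes. A gene was tested where enough mice to fill the smaller group had 20 or more counts after scaling to the smallest library. As in the study, *Xist* and genes of chromosome Y, rRNA and non-coding IG genes did not enter. Genotypes were compared pairwise with edgeR 4.0.16 (TMM, quasi-likelihood test, two-sided, Benjamini-Hochberg adjustment over all genes, R 4.3.3, limma 3.58.1). The study itself used DESeq2 with sex and surrogate variables and an absolute log2FC above 1.5, and DESeq2 1.42.0 and sva 3.50.0 served as alternatives. At that fold threshold 32, 43 and 16 genes passed edgeR in TKO against wt, Zmat3-/- against wt and TKO against Zmat3-/- mice, none of the 10. Ratios were log2 of counts plus 0.5. The genes and lists were chosen with earlier results of these data known. Genes named from the lists are those that passed and otherwise the largest rise and fall. The main fits and the ratio tests were unpaired, and the labels do not say that mice of the same replicate number are pairs. Same-numbered Zmat3-/- and wt mice deviated from their group means with correlations of 0.340, 0.127, 0.258 and 0.303. The numbers were therefore taken as pairs only in an alternative fit with the number as a block. Some mice of different numbers correlated as much (Zmat3-/- mouse 1 with wt mouse 2 at 0.381, Zmat3-/- mouse 2 with wt mouse 1 at 0.182), so the block also follows the split of mice 1 and 2 from 3 and 4. On counts simulated with the spread of these mice, 200 genes were changed by an absolute log2 of 1. The test recovered 35.5% of them for Zmat3-/- against wt, 0% for TKO against wt and 77.5% for TKO against Zmat3-/- mice. Each gene was drawn on its own, without the shared split of the wt mice. A gene which did not pass against wt may still differ. The p-values measure the spread between mice.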

Additional observations from a re-analysis of the deposited data

How the results depend on the processing

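Leaving out pairs of wt mice and removing the trend with length were chosen after seeing the data. None of the 10 genes passed under RLE size factors, without the filter on low counts, with all genotypes in 1 fit, with the *Xist* level, with the replicate number as a block or with any 1 mouse left out. Some passed with 1 surrogate variable (3 in TKO and 5 in Zmat3-/- against wt, beside 18.0% and 37.8% of all genes), with DESeq2 (0 and 2, beside 2.88% and 8.03%), without wt mice 1 and 2 (0 and 5, beside 8.14% and 33.0%), without wt mice 3 and 4 (6 and 7, beside 43.6% and 56.1%) and without the trend with length (0 and 1, beside 0.610% and 3.36%). The number of genes lower than in wt, 8 in both comparisons, became 4 and 3 without wt mice 1 and 2, 9 and 9 without wt mice 3 and 4, 5 and 7 without the trend, and 7 to 9 and 7 to 8 with each mouse left out. Between TKO and Zmat3-/- mice it ran from 4 to 8 with each mouse left out. Genes without overlap with wt, 2 in both (beside 13.8% and 14.0% of all genes), became 6 and 7 without wt mice 1 and 2 (47.5% and 53.5%) and 10 and 8 without wt mice 3 and 4 (67.6% and 68.9%). Between the mutants 1 to 3 did with each mouse left out.

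Without wt mice 1 and 2 the log2FC turned positive for *Cd3d* (0.074), *Trac* (0.16), *Trbc1* (0.32) and *Trbc2* (0.30) in TKO mice and for *Cd3d* (0.14), *Cd3g* (0.13), *Trac* (0.056), *Trbc1* (0.40) and *Trbc2* (0.34) in Zmat3-/- mice. Without wt mice 3 and 4 that of *Cd247* turned negative (−0.10 and −0.069). Without the trend with length *Trac* (0.036), *Trbc1* (0.12) and *Cd8b1* (0.014) turned in TKO and *Trbc1* (0.14) in Zmat3-/- mice, where *Trbc1* was also 0.057 with 1 surrogate variable. With each mouse left out, *Trbc1* ranged from −0.32 to 0.011 in TKO and from −0.23 to 0.10 in Zmat3-/- mice, and *Cd4* from −0.0021 to 0.19 in TKO mice. The cause of these turns was not tested. Summing *Trbc1* and *Trbc2* changed no call.

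Of the 167 genes tested in the other lists, 6 (3.59%) passed in TKO and 8 (4.79%) in Zmat3-/- against wt. The counts were 16 (9.58%) and 26 (15.6%) with DESeq2, 46 (27.5%) and 79 (47.3%) with 1 surrogate variable, 24 (14.4%) and 66 (38.6%) without wt mice 1 and 2, 71 (42.3%) and 97 (57.4%) without wt mice 3 and 4, and 7 (4.19%) and 16 (9.58%) without the trend with length, to be read beside the shares of all genes above. They were 0 and 2 with the replicate number as a block, and 0 to 6 and 3 to 7 with each mouse left out. Without the trend the medians of the other lists moved by over 1.5 times for some, among them the single-positive genes (−0.25 in TKO and −0.23 in Zmat3-/- mice) and the myeloid genes (0.24 and 0.30). Each Zmat3-/- mouse left out, and wt mouse 2, 3 or 4, ended the call of *Ms4a4b*, and any mouse left out that of *Mrc1*, which also did not pass without the trend with length. Between the mutants DESeq2 called 1. Same-numbered TKO and wt mice correlated at 0.0715 to 0.404 and TKO and Zmat3-/- mice at 0.0127 to 0.195, so those numbers were not taken as pairs. The blocked values of TKO mice are given only as a description. The block changed no call of the 10 genes. For the ratios the blocked exact sign permutation gave p = 0.125 in Zmat3-/- and 0.25 in TKO mice for *Cd4* to *Cd8a* and for *Cd247* to *Cd3e*, the smallest values it can give, with log2 differences of 0.30 and 0.33 and of 0.60 and 0.52. Another prior count changed none. The order of levels by their mean over all mice was the same with the longest transcript, but that of *Cd3e* and *Cd247* turned in both mutants.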
